A study of Homo sapiens with 18 samples.

Results

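Kinesins are motor proteins that use ATP to move along microtubules or, in some members, to shorten microtubule ends. The 42 genes of the family described here were taken by symbol, as every gene named KIF followed by a number and an optional letter, together with KIFC1, KIFC2 and KIFC3, out of 58037 genes in the count table. Of these, a fixed list of 12 was taken as the kinesins of the mitotic spindle and of cell division: KIF2C, KIF4A, KIF11, KIF14, KIF15, KIF18A, KIF18B, KIF20A, KIF20B, KIF22, KIF23 and KIFC1. The remaining 30 were set against them as the other kinesins, most of which carry organelles, vesicles or ciliary cargo. This split does not exclude a role in division for some of the 30. CENPE is a mitotic kinesin whose symbol lies outside the naming rule, and it was counted among the partner genes below.

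The RNA came from LNCaP cells, an established androgen-responsive human prostate cancer line. All cells were transfected with a pool of siRNAs directed at E2F1, at E2F2 or, as the control, at no human gene. Each pool was then combined with vehicle (ethanol) or with 0.1 nM R1881, a synthetic androgen, for 48 h, giving 6 groups of 3 biological replicates and 18 libraries. Treatment began 42 h after transfection by the design text and 48 h after it by the protocol. Nothing in them says whether replicates came from separate cultures started on separate days, so p-values measure the spread between these samples.

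Mitotic kinesins slide antiparallel microtubules apart, push chromosome arms, focus spindle poles and build the midzone between separating chromosomes, and their RNAs peak in G2 and M phase of the cell cycle. Transport kinesins are made in dividing and resting cells alike. E2F1 and E2F2 are transcription factors of the cell cycle that act mainly on genes of the G1 to S transition. Promoters of G2 and M genes often carry a cell cycle genes homology region (CHR), bound by the DREAM and MuvB complexes, a short distance downstream of CCAAT boxes bound by NF-Y.

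Promoter sequences are shown here to describe the members, most of which share short promoter motifs in the mitotic class. Whether these motifs had a part in the changes below was not tested. Letters were searched on both strands in RefSeq windows (GRCh38.p14) running from 250 bases before to 50 bases after each annotated start. The motifs were CHR in its forms TTTGAA or TTTAAA, the CCAAT box, and 4 E2F forms, which were TTTCCCGC for the first, TTTGGCGC for the second, TTTCGCGC for the third and TTTGCCGC for the fourth. TTTAAA reads the same on both strands, and no form of one motif can be counted as another. Windows were found for 29 of the 33 kinesins with enough counts to test. KIF13B, KIF21B, KIF27 and KIFC2 were the other 4.

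At least 1 CHR form was present for 11 of the 12 mitotic kinesins (91.7%) and for 2 of the 17 other kinesins with a window (11.8%). Among all 27305 genes with a window the share was 27.9%, and among the 10105 of them tested here it was 21%. CCAAT letters were present for 10 of 12 mitotic kinesins (83.3%) and 6 of 17 other kinesins (35.3%). The shares were 39.7% of all genes with a window and 43.4% of those tested. An E2F form was found for 1 of 12 mitotic kinesins (8.33%), KIF15, and for 0 of 17 others. It was found for 3.99% of all genes with a window and 6.59% of those tested, so the mitotic share was near that of tested genes. These matches describe letters in a window and are not measured binding sites.

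The stretches below run from 120 bases before to 10 bases after the start, 5′ to 3′ on the gene's own strand. Capitals mark the motif letters on either strand (ATTGG stands for CCAAT on the opposite strand, and TTCAAA for TTTGAA). KIF4A and KIF20A are the mitotic members with the smallest p-values in the 3 main comparisons, and KIF23 and KIFC1 show the same pairing of CCAAT with CHR.
KIF4A: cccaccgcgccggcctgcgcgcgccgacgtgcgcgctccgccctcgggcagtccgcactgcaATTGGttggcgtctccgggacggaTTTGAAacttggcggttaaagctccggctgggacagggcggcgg
KIF20A: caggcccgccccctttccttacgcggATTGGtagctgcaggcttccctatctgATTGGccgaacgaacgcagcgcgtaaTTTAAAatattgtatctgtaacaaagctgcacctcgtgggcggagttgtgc
KIF23: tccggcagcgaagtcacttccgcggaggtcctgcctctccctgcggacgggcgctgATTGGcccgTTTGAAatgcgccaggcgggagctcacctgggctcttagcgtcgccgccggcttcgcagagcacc
KIFC1: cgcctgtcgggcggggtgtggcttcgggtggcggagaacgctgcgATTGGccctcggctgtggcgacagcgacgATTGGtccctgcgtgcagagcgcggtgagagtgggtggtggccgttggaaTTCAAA

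These 4 stretches lie at chrX:70289984-70290113, chr5:138178992-138179121, chr15:69414229-69414358 and chr6:33391703-33391832, all on the plus strand. With positions counted in bases from the start, the CHR letters of KIF4A began at -34 and its CCAAT letters at -58. KIF20A had the TTTAAA form at -41, with CCAAT letters at -67 and -94. KIF23 had CHR letters at -55 and CCAAT letters at -64. In KIFC1 the CHR letters began just after the start, at position 5, with CCAAT letters at -46 and -75.

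KIF2C and KIF15 are shown as members whose windows had a CHR form without CCAAT letters. KIF15 was also the member with E2F letters, which ran directly into its CHR.
KIF2C: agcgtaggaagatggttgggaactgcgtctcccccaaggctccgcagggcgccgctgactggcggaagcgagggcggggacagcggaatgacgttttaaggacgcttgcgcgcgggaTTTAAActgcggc
KIF15: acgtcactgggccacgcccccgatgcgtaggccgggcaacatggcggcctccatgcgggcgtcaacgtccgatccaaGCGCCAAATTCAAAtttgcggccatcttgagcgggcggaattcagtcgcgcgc

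They lie at chr1:44739717-44739846 and chr3:44761674-44761803 on the plus strand. KIF24 and KIF16B, from the other kinesins, are shown for contrast because both changed in several comparisons below.
KIF24: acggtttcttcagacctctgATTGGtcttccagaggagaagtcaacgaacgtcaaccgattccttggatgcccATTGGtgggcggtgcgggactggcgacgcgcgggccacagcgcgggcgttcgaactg
KIF16B: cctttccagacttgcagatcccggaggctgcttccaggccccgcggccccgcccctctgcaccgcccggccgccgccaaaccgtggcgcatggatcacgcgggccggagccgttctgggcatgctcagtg

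They lie at chr9:34329259-34329388 and chr20:16573439-16573568 on the minus strand. KIF24 had CCAAT letters but neither CHR form in its window. That window lies upstream of the KIF24 gene position used here (chr9:34252381-34311371) and does not overlap it. It may therefore not be the promoter of the counted KIF24 transcripts, which was not tested, and motifs nearer to them were not searched. The windows of KIF11 (chr10:92592880-92593179) and KIF18B (chr17:44947724-44948023), counted above with a CHR form, also lie upstream without overlap. Their gene positions (chr10:92593286-92655395 and chr17:44924709-44947711) are nearer to the window than that of KIF24. Whether these windows serve the counted transcripts was not tested either. KIF16B had neither motif in the stretch shown, and its window held TTTAAA at -241. KIF22, a mitotic kinesin, had CCAAT letters at -66 from one of its annotated starts and neither CHR form at either start.

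**Figure D1:**
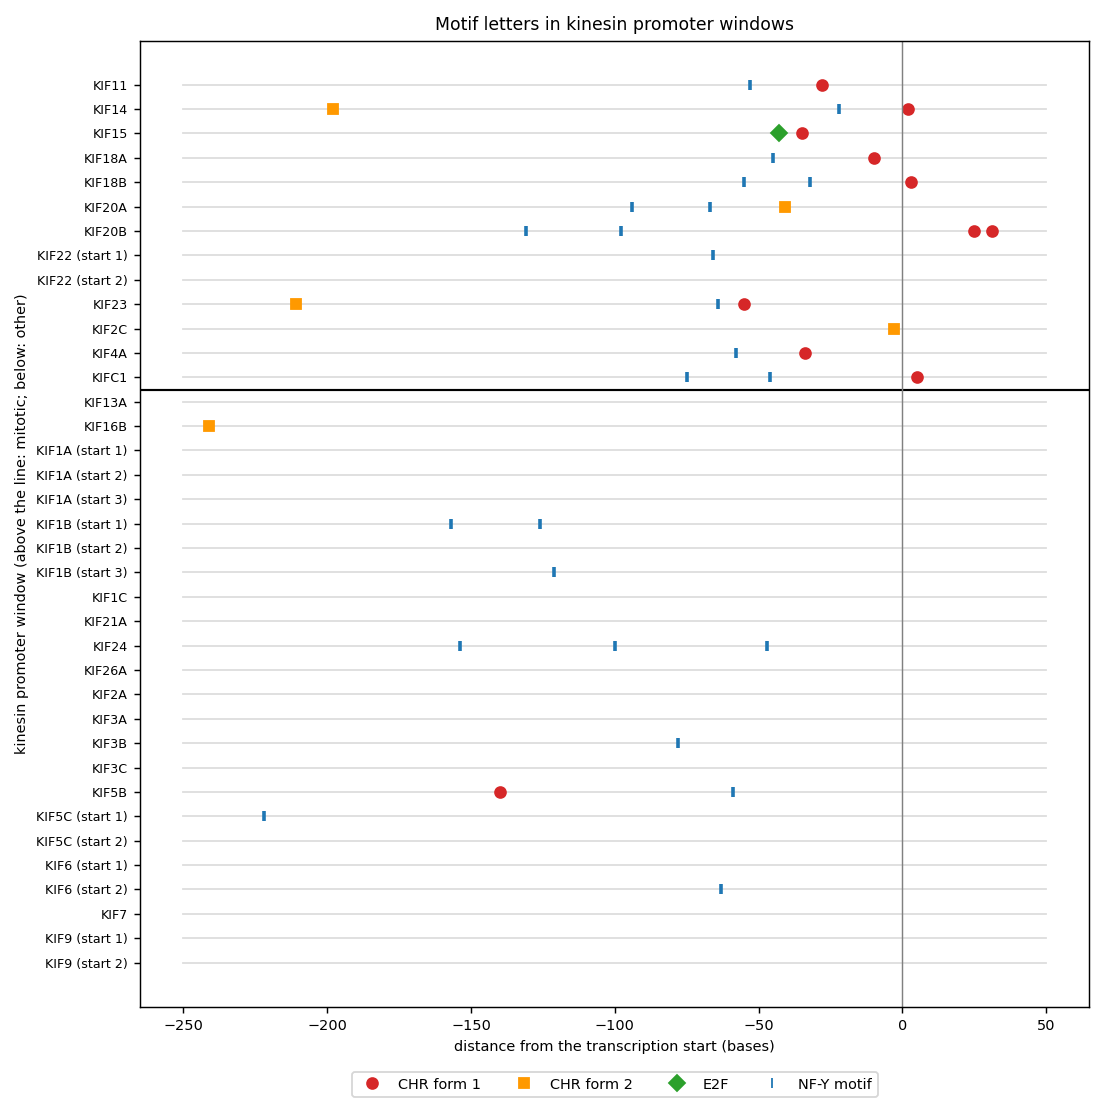
Motif letters in each promoter window of the 29 kinesins with a RefSeq window, plotted by distance in bases from the transcription start, with mitotic kinesins above the line and other kinesins below it. Circles are the TTTGAA form and squares the TTTAAA form of CHR, diamonds are E2F letters and vertical ticks (NF-Y motif) are CCAAT letters. CHR letters appear for 11 of 12 mitotic and 2 of 17 other kinesins.

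Libraries held 10930204 to 14819879 counts, of which kinesins made up 0.2 to 0.262%. E2F1 siRNA left E2F1 RNA at 18.4% of control with vehicle and 13% with R1881, and E2F2 siRNA left E2F2 RNA at 5.67% and 6.02%. E2F2 siRNA also lowered E2F1 RNA, to 33.7% of control with vehicle (log2 fold change -1.57 ± 0.16 SE, edgeR adjusted p = 3.71e-06) and 32.5% with R1881 (-1.62 ± 0.16, adjusted p = 1.69e-06). E2F2 itself was a low-count gene, at 2.29 ± 0.877 CPM (counts scaled to library size by TMM; SD, n = 3) in control cells with vehicle. With E2F1 siRNA, E2F2 RNA was at 81.5% of control with vehicle (-0.29 ± 0.38, adjusted p = 0.817). With R1881 it was at 43% (-1.22 ± 0.38, adjusted p = 0.0586). Any part of E2F2 in the results with the E2F1 pool was not tested. Luminal prostate markers were expressed in every library (KRT8 at 386 to 1220 CPM, HOXB13 at 296 to 587 CPM). Of 8 markers of other cell types, PTPRC, CD3E, PECAM1, COL1A2 and DCN had a median of 0 CPM, while COL1A1 (11 to 37 CPM) and ACTA2 (2.49 to 20.4 CPM) were detected. The summed level of these 8 markers ran from 16.1 to 20.3 CPM in control cells with R1881 and from 33 to 43.7 CPM in E2F2 siRNA cells with vehicle, the groups in which mitotic kinesins were highest and lowest. Its part in the results was not tested.

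Replicate 3 stood apart from replicates 1 and 2 in every group, along GC content. Across 15122 genes, the deviation of a library from the mean of the other 2 in its group was correlated with GC content. The correlation was r = 0.355 to 0.771 in the replicate 3 libraries and -0.661 to -0.0999 in the others. Deviations within a group cancel, so the negative values are not a separate observation. These values describe genes, which are not independent. The separation was widest in control cells with vehicle. There KIF20B, whose longest transcript has 34.2% GC, had 37.8 and 35.4 CPM in replicates 1 and 2 and 6.67 CPM in replicate 3. KIF14 (38.3% GC) had 28.5, 27.1 and 7.61 CPM. GC-rich members deviated the other way, with KIF22 (58.9% GC) at 63.2, 60.9 and 85.5 CPM. Relative to the mean of replicates 1 and 2 on the log2 scale, replicate 3 was lower by 2.44 for KIF20B, 1.86 for KIF14, 1.69 for KIF11 and 1.49 for KIF18A. Median GC was 44.3% for mitotic kinesins, 48.5% for other kinesins and 48.2% for all genes tested. What set replicate 3 apart was not tested. Several results that rest on it are given below with replicates 1 and 2 alone, with an offset for GC content, or by library.

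**Figure D2:**
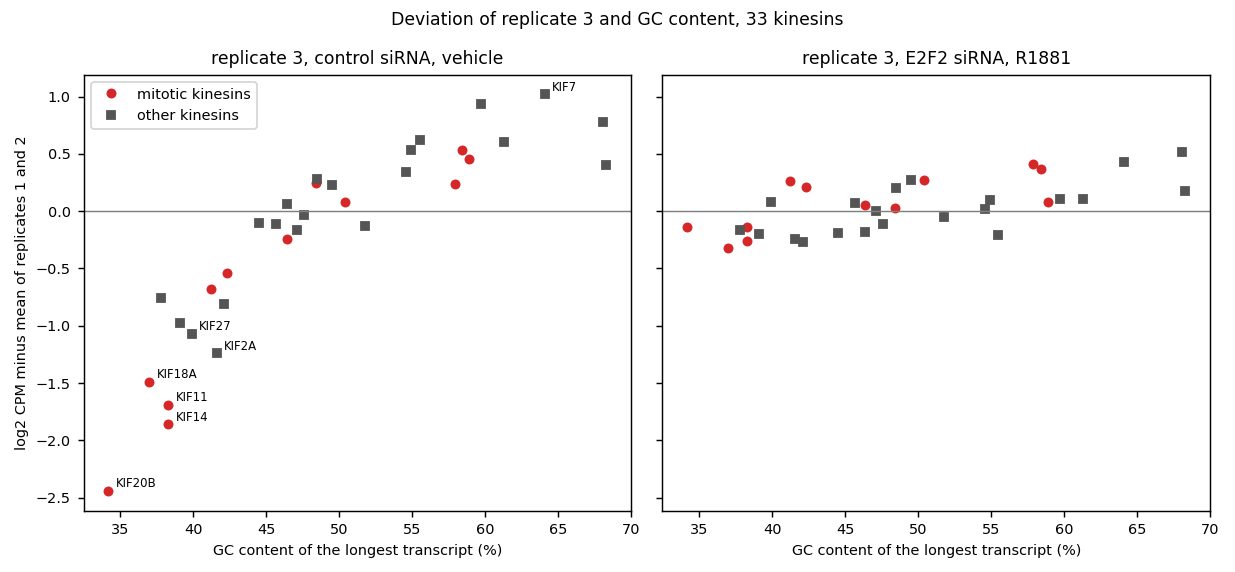
Deviation of replicate 3 from the mean of replicates 1 and 2 (log2 CPM, vertical axis) against GC content of the longest transcript (%, horizontal axis) for 33 kinesins, in control cells with vehicle (left) and E2F2 siRNA cells with R1881 (right). Low-GC members fall as far as -2.44 on the left, while on the right KIF20B lies at -0.14.

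Of the 42 kinesins, 33 passed the filter on low counts and were tested: all 12 mitotic and 21 of 30 other kinesins. KIF12, KIF17, KIF25, KIF26B, KIF4B, KIF5A and KIFC3 had too few counts, and KIF19 and KIF2B had 0 counts in all libraries. Per length, in reads per kilobase scaled like CPM (RPKM), the most abundant kinesin in control cells with vehicle was KIF5B, the ubiquitous heavy chain of conventional kinesin, at 83 ± 28.4 RPKM (SD, n = 3). KIF1C (33.2 ± 7.4 RPKM) and KIF3B (29.9 ± 0.335 RPKM) followed and did not differ beyond their spread. Among mitotic members KIF22 was at 16.2 ± 3.15 RPKM and KIF20A at 13.7 ± 1.48 RPKM, again within their spread, and KIF15 (2.38 ± 0.601 RPKM) and KIF18A stood lowest. The libraries were made by exon capture, and the length used was that of all annotated exons merged. Ranks between genes by RPKM are therefore approximate. Mitotic kinesins together had 346 to 412 CPM in the 3 control libraries with vehicle and 738 to 799 CPM in the 3 with R1881. Their sum was 134 to 138 CPM with E2F2 siRNA and vehicle and 258 to 296 CPM with E2F2 siRNA and R1881. The sum for the other kinesins stayed between 1770 and 2160 CPM in all 18 libraries. In bulk RNA, fewer dividing cells and less RNA per dividing cell cannot be told apart.

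**Figure D3:**
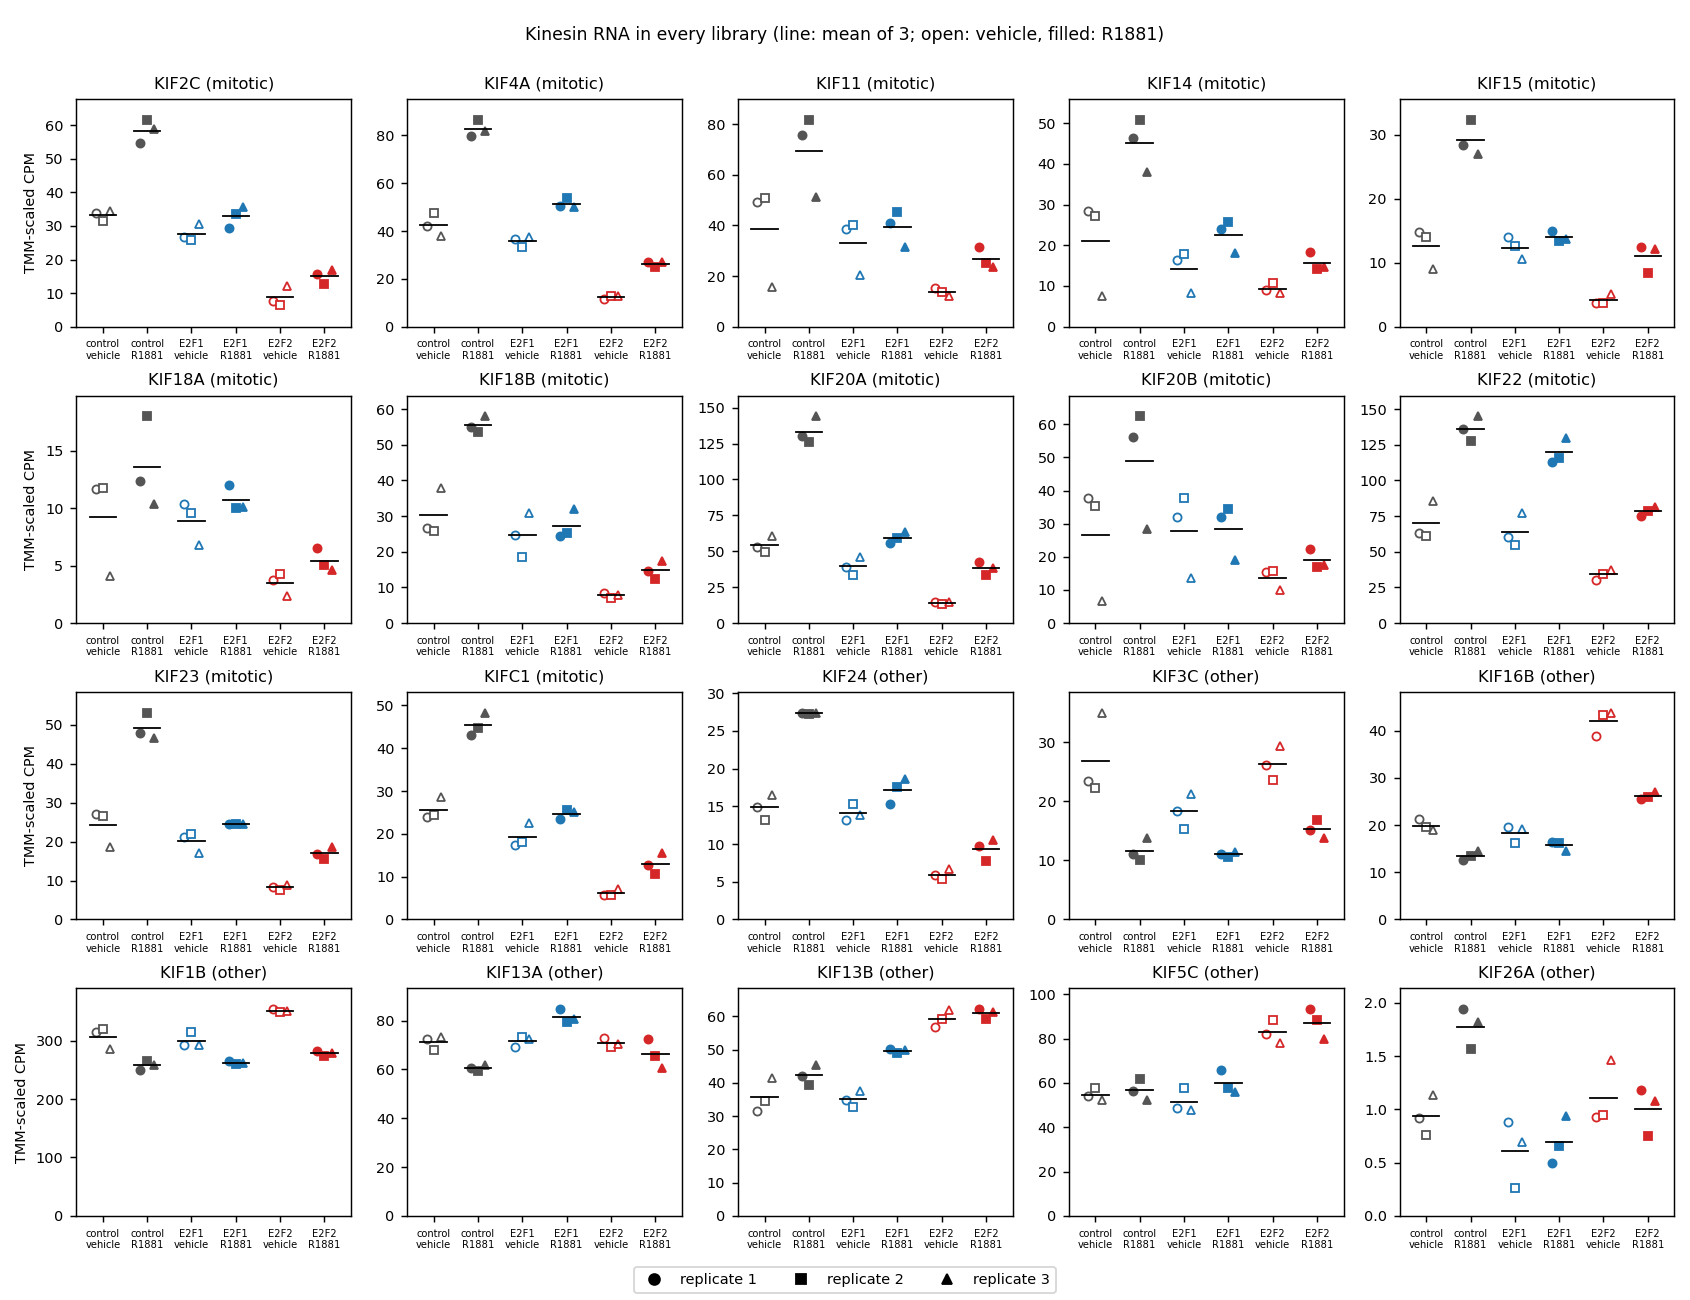
Level of the 12 mitotic kinesins and of 8 other kinesins in every library, in TMM-scaled CPM on a linear axis from 0, by siRNA pool and treatment. Symbols give the replicate number, open symbols vehicle, filled symbols R1881, and the line is the mean of 3. For KIF20A the control R1881 libraries lie at 126 to 144 CPM, above all other libraries.

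The first question was how R1881 changed kinesin RNA in cells with the control pool. All 12 mitotic kinesins had a positive fold change and 9 of 12 rose at an adjusted p under 0.05 (edgeR quasi-likelihood test, Benjamini-Hochberg adjustment over 15185 genes), with a median log2 fold change of 0.92. Of all genes tested, 13.8% rose and 13.2% fell, with a median of 0. Among the other kinesins 2 of 21 rose and 4 of 21 fell, with a median of 0.02.

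KIF20A (ENSG00000112984.11, chr5:138178719-138187715 in GENCODE 29 on GRCh38), which carries the chromosomal passenger complex to the spindle midzone, had 52.8, 49.3 and 60.7 CPM with vehicle and 130, 126 and 144 CPM with R1881. Every R1881 library exceeded every vehicle library. The difference was 2.45-fold (log2 fold change 1.3 ± 0.12 SE, adjusted p = 1.04e-06). KIF4A (ENSG00000090889.11, chrX:70290090-70420832), a chromokinesin that limits microtubule length at the midzone, had 42.1, 47.6 and 37.8 CPM with vehicle and 79.9, 86.5 and 82 CPM with R1881. These groups did not overlap either, and the difference was 1.95-fold (0.96 ± 0.09, adjusted p = 1.09e-06).

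The other mitotic members that rose were KIF15 (log2 fold change 1.22 ± 0.19), a spindle motor that works beside KIF11, KIF14 (1.1 ± 0.36), which acts with citron kinase in cytokinesis, KIF23 (1.03 ± 0.14), a subunit of centralspindlin, and KIF22 (0.96 ± 0.14), a chromokinesin that pushes chromosome arms. So did the plus-end kinesin KIF18B (0.88 ± 0.18), the minus-end motor KIFC1 (0.82 ± 0.14), which focuses spindle poles, and the centromeric depolymerase KIF2C (0.81 ± 0.16). KIF11 (0.86 ± 0.34, adjusted p = 0.0791), which keeps spindle poles apart, KIF18A (0.57 ± 0.32, adjusted p = 0.214), which aligns chromosomes, and KIF20B (0.88 ± 0.49, adjusted p = 0.209), which acts in abscission, did not pass the test. The KIF14 call was lost without any 1 of 2 libraries and when only the groups compared were fitted. With KIF14, these 3 were the members with the lowest GC content and the largest standard errors. With an offset for GC content, added after the data were seen, KIF11 (0.84 ± 0.13, adjusted p = 5.67e-05), KIF18A (0.52 ± 0.15, adjusted p = 0.00771) and KIF20B (0.9 ± 0.19, adjusted p = 0.000728) passed.

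KIF24 (ENSG00000186638.16, chr9:34252381-34311371), a centriolar kinesin that the fixed list leaves with the other kinesins, had 14.9, 13.2 and 16.5 CPM with vehicle and 27.4, 27.2 and 27.4 CPM with R1881. The groups did not overlap and the log2 fold change was 0.88 ± 0.13 (adjusted p = 7.8e-05). KIF26A, a low-count member without motor activity, was the second to rise (0.91 ± 0.3, adjusted p = 0.0361), from 0.921, 0.761 and 1.13 CPM to 1.94, 1.57 and 1.82 CPM. The call was lost without any 1 of 5 libraries, and DESeq2 gave 0.92 ± 0.38 with an adjusted p of 0.0512.

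KIF3C (ENSG00000084731.14, chr2:25926596-25982749), a kinesin-2 motor subunit, fell with R1881. It had 23.5, 22.2 and 35 CPM with vehicle and 11.1, 10.1 and 13.8 CPM with R1881, with no overlap, a 2.31-fold decrease (-1.21 ± 0.18, adjusted p = 9e-05). KIF16B (-0.56 ± 0.1, adjusted p = 0.000585), which moves early endosomes, KIF1B (-0.25 ± 0.06, adjusted p = 0.00628), a carrier of mitochondria and synaptic vesicle precursors, and KIF13A (-0.23 ± 0.08, adjusted p = 0.0298), an endosomal kinesin, fell as well. The KIF1B and KIF13A calls were lost when only the groups compared were fitted and without a filter on low counts, and that of KIF13A also without any 1 of 4 libraries.

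E2F1 siRNA was compared with the control pool next. With R1881 present, 7 of 12 mitotic kinesins fell and 0 rose (median -0.85), where 4.92% of all genes fell, 4.42% rose and the median was -0.01. With vehicle, 1 of 12 fell (median -0.25), where 2.92% of all genes fell and 2.36% rose.

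With E2F1 siRNA, KIF20A had 38.7, 33.6 and 46.2 CPM with vehicle and 55.9, 59.4 and 63.2 CPM with R1881. The R1881 values lay below all 3 control R1881 libraries, at 44.7% of control (-1.16 ± 0.12, adjusted p = 2.24e-05). KIF20A was also the 1 mitotic member called with vehicle (-0.46 ± 0.12, adjusted p = 0.0412), a call lost without any 1 of 13 libraries, without a filter on low counts and when only the groups compared were fitted. KIF4A had 36.8, 33.3 and 37.4 CPM with vehicle and 50.6, 53.7 and 49.9 CPM with R1881. With R1881 it was at 62.1% of control without overlap (-0.69 ± 0.09, adjusted p = 0.000176), and with vehicle the difference was -0.25 ± 0.09 (adjusted p = 0.169).

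Also lower with E2F1 siRNA and R1881 were KIF15 (-1.06 ± 0.19), KIF18B (-1.02 ± 0.18), KIF23 (-1 ± 0.14), KIFC1 (-0.88 ± 0.14) and KIF2C (-0.83 ± 0.16). The 4 low-GC members did not pass (KIF14 at -1 ± 0.36, KIF11 at -0.83 ± 0.34, KIF20B at -0.78 ± 0.49, KIF18A at -0.35 ± 0.32). With the replicate block, KIF14 (adjusted p = 0.0056) and KIF11 (0.00909) passed. With replicates 1 and 2 alone all 12 mitotic kinesins were called lower (29.5% of all genes called in either direction), and with the GC offset 11 of 12 were (23.9%). KIF22 had 113, 116 and 130 CPM with E2F1 siRNA and R1881 against 136, 128 and 145 CPM in control cells. These groups overlapped, and the difference was -0.19 ± 0.14 (adjusted p = 0.498). In vehicle KIF22 differed by -0.13 ± 0.14 (adjusted p = 0.766).

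Among the other kinesins, KIF24 (-0.67 ± 0.13, adjusted p = 0.00266) and KIF26A (-1.35 ± 0.33, adjusted p = 0.0153) were lower with E2F1 siRNA and R1881, and KIF13A was higher. The KIF26A call was lost without any 1 of 3 libraries. KIF13A (ENSG00000137177.19, chr6:17759183-17987623) had 72.4, 68.1 and 73.1 CPM in control cells with vehicle and 60.4, 59.2 and 62 CPM with R1881. With E2F1 siRNA it had 69.2, 73.4 and 72.3 CPM with vehicle and 84.7, 79.6 and 80.5 CPM with R1881. The R1881 libraries of the 2 pools did not overlap (0.43 ± 0.08, adjusted p = 0.00168). With vehicle, KIF9 was higher (0.56 ± 0.12, adjusted p = 0.0135) and KIF3B, a motor subunit of the heterotrimeric kinesin-2 of cilia, was lower (-0.26 ± 0.06, adjusted p = 0.0211). The KIF9 call was lost without any 1 of 3 libraries and in 3 other alternatives, replicates 1 and 2 alone among them, and the KIF3B call without any 1 of 4 libraries and in 2 other alternatives.

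E2F2 siRNA was compared with the control pool in the same way. With R1881, all 12 mitotic kinesins fell (median -1.53), where 14.4% of all genes fell, 15.9% rose and the median was 0.03. With vehicle, 11 of 12 fell (median -1.57), where 13.1% of all genes fell and 14.2% rose. Since this pool also left E2F1 RNA at about 33% of control, the parts of E2F2 and E2F1 in these decreases cannot be told apart.

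With E2F2 siRNA, KIF4A had 11.7, 12.8 and 12.7 CPM with vehicle and 26.9, 25 and 26.9 CPM with R1881. These lay far below the control libraries of the same treatment, at 29.2% of control with vehicle (-1.78 ± 0.1, adjusted p = 7.21e-09) and 31.7% with R1881 (-1.66 ± 0.09, adjusted p = 1.29e-08). KIF20A had 14.6, 13.2 and 14.8 CPM with vehicle and 42.5, 33.5 and 38.4 CPM with R1881. It was at 26.2% of control with vehicle (-1.93 ± 0.13, adjusted p = 4.5e-08) and 28.6% with R1881 (-1.8 ± 0.13, adjusted p = 6.24e-08), without overlap.

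The deepest fall with vehicle was that of KIFC1, to 24.1% of control (-2.05 ± 0.15, adjusted p = 1.03e-07). KIF18B (-1.96 ± 0.2), KIF2C (-1.91 ± 0.17), KIF15 (-1.59 ± 0.21), KIF23 (-1.55 ± 0.15), KIF11 (-1.48 ± 0.36), KIF18A (-1.41 ± 0.36), KIF14 (-1.18 ± 0.38) and KIF22 (-1.04 ± 0.14) fell too, although the vehicle libraries of the E2F2 and control pools overlapped for KIF14 and KIF18A. The KIF14 call was lost without any 1 of 5 libraries, and those of KIF14, KIF11 and KIF18A when only the groups compared were fitted. KIF20B was at -0.96 ± 0.51 (adjusted p = 0.181), with overlapping groups. Each of these overlaps rested on replicate 3 of control vehicle, at 7.61 CPM for KIF14, 4.14 for KIF18A and 6.67 for KIF20B. Replicates 1 and 2 of control vehicle had 28.5 and 27.1, 11.7 and 11.8, and 37.8 and 35.4 CPM. The highest E2F2 siRNA libraries with vehicle had 10.7, 4.25 and 15.6 CPM. With R1881 the range ran from -0.8 ± 0.14 for KIF22 to -1.95 ± 0.17 for KIF2C. There KIF20B passed narrowly (-1.37 ± 0.5, adjusted p = 0.0496), and that call was lost with RLE size factors and without any 1 of 14 libraries.

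Among the other kinesins KIF24 alone fell with E2F2 siRNA, in both treatments. It had 5.83, 5.38 and 6.63 CPM with vehicle (-1.32 ± 0.14, adjusted p = 3.3e-06) and 9.8, 7.69 and 10.5 CPM with R1881 (-1.55 ± 0.13, adjusted p = 3.91e-07), below every control library. KIF16B moved the opposite way. KIF16B (ENSG00000089177.18, chr20:16272104-16573434) had 21.3, 19.5 and 18.9 CPM in control cells with vehicle and 38.9, 43.4 and 43.8 CPM with E2F2 siRNA, a 2.12-fold increase without overlap (1.08 ± 0.1, adjusted p = 1e-06). With R1881 it had 12.5, 13.5 and 14.4 CPM in control cells and 25.5, 26 and 27.1 CPM with E2F2 siRNA (0.96 ± 0.1, adjusted p = 3.3e-06).

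KIF13B rose with E2F2 siRNA in both treatments (0.72 ± 0.1 with vehicle, 0.53 ± 0.1 with R1881), as did KIF5C, a heavy chain of conventional kinesin enriched in neurons (0.6 ± 0.1 and 0.61 ± 0.1). KIF1B (0.2 ± 0.06, adjusted p = 0.0255) and KIF2A, a microtubule depolymerase (0.72 ± 0.25, adjusted p = 0.0432), rose with vehicle. KIF3B rose with R1881 (0.2 ± 0.06, adjusted p = 0.017). The KIF1B call was lost without any 1 of 5 libraries and the KIF3B call without any 1 of 4, each also in 2 other alternatives. Of 21 other kinesins, 5 rose and 1 fell with vehicle (median 0.03), where 14.2% of all genes rose and 13.1% fell. With R1881, 4 of 21 rose and 1 fell (median 0.06), where 15.9% of all genes rose and 14.4% fell. KIF2A shares 8.97% of its exon length with IPO11 on the same strand, so its counts are uncertain, and its call was lost without any 1 of 13 libraries.

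**Figure D4:**
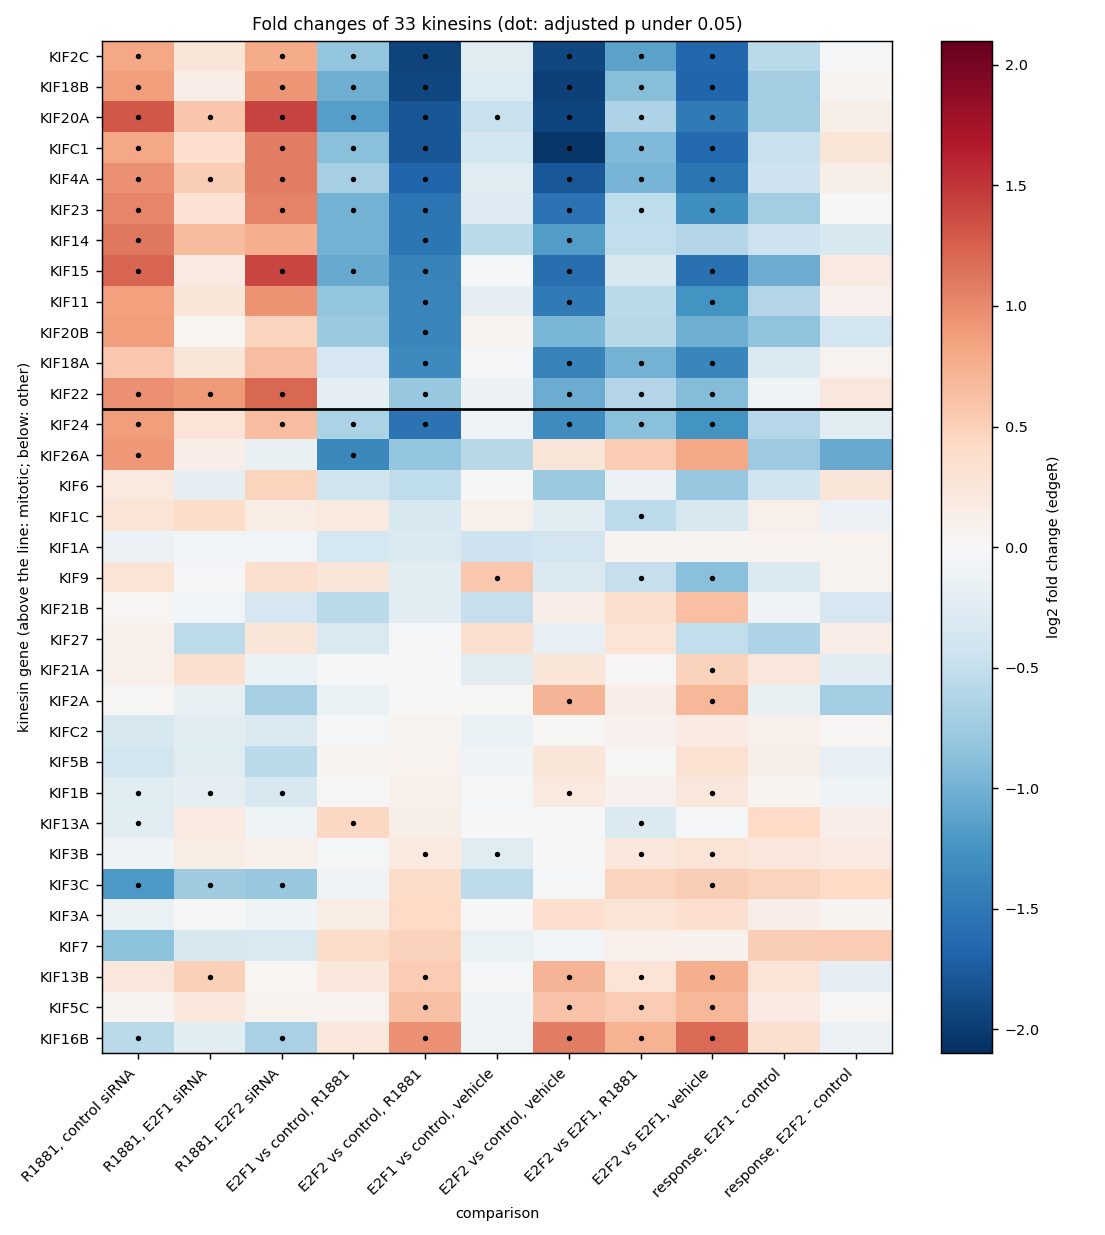
Log2 fold changes (colour, red higher and blue lower) of the 33 tested kinesins in 11 comparisons, ordered within each class by the change with E2F2 siRNA and R1881, with a dot where the adjusted p was under 0.05. Mitotic kinesins, above the line, are dotted for all 12 members in the comparison of E2F2 with control siRNA with R1881, and KIF24 is the first row below the line.

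The E2F pools were also compared directly. Control cells do not enter this difference of group means, but all 18 libraries enter the estimate of spread behind its p-values. With R1881, 8 of 12 mitotic kinesins were lower with E2F2 siRNA than with E2F1 siRNA (median -0.62), where 11% of all genes were lower and 13.1% higher. With vehicle 10 of 12 were lower (median -1.42), where 14.4% of all genes were lower and 16.1% higher. KIF4A differed by -0.97 ± 0.09 with R1881 (adjusted p = 2.23e-06) and -1.53 ± 0.1 with vehicle (adjusted p = 1.76e-08). KIF22, which did not pass between E2F1 siRNA and control, was lower with E2F2 than with E2F1 siRNA at -0.61 ± 0.14 with R1881 (adjusted p = 0.00405) and -0.91 ± 0.14 with vehicle (adjusted p = 0.000134). The calls of KIF18A with R1881, KIF23 with R1881 and KIF11 with vehicle were lost without any 1 of 10, 1 and 3 libraries.

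Of the other kinesins, 4 of 21 were higher and 4 of 21 lower with R1881, beside 13.1% and 11% of all genes. With vehicle 8 of 21 were higher and 2 of 21 lower, beside 16.1% and 14.4% of all genes. KIF16B, KIF13B, KIF5C and KIF3B were higher with E2F2 siRNA in both treatments, led by KIF16B (0.73 ± 0.1 and 1.19 ± 0.1). KIF1B, KIF3C, KIF2A and KIF21A were higher with vehicle. Of these calls, KIF13B with R1881 was lost without any 1 of 11 libraries, KIF3B with R1881 without any 1 of 3, and KIF3C, KIF2A and KIF21A with vehicle without any 1 of 4, 14 and 10. The vehicle calls of KIF1B, KIF3B and KIF3C were lost when only the groups compared were fitted. Without a filter on low counts these 3, KIF21A with vehicle and KIF13B and KIF3B with R1881 were lost. KIF24 (-0.88 ± 0.13 and -1.25 ± 0.14) and KIF9 (-0.48 ± 0.12 and -0.87 ± 0.13) were lower in both treatments, and KIF1C (-0.55 ± 0.14) and KIF13A (-0.3 ± 0.08) with R1881.

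The last question was whether R1881 still raised mitotic kinesins once an E2F was silenced. With E2F1 siRNA, 3 of 12 rose with R1881 (KIF22, KIF20A and KIF4A) and 0 fell, with a median of 0.28, where 10.1% of all genes rose and 9.75% fell. The count was 6 of 12 with replicates 1 and 2 alone (38.3% of all genes called in either direction) and with the GC offset (33.9%), and 5 of 12 with the replicate block. KIF22 rose by 0.9 ± 0.14 (adjusted p = 0.00015), KIF20A by 0.59 ± 0.12 (adjusted p = 0.00233) and KIF4A by 0.52 ± 0.09 (adjusted p = 0.00059). KIF15, at 14, 12.6 and 10.5 CPM with vehicle and 14.9, 13.4 and 13.7 CPM with R1881, overlapped between treatments (0.18 ± 0.19, adjusted p = 0.631). With E2F2 siRNA, 8 of 12 rose and 0 fell, with a median of 0.99, where 11.8% of all genes rose and 11% fell. KIF20A rose 2.68-fold (1.42 ± 0.13, adjusted p = 6.2e-07) and KIF4A 2.12-fold (1.08 ± 0.1, adjusted p = 5.42e-07) there, from lower vehicle levels.

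Among the other kinesins R1881 raised 1 of 21 and lowered 2 of 21 with E2F1 siRNA, where 10.1% of all genes rose and 9.75% fell, and raised 1 of 21 and lowered 3 of 21 with E2F2 siRNA, where 11.8% rose and 11% fell. KIF3C fell with every pool (-0.74 ± 0.18 with E2F1 siRNA, -0.79 ± 0.18 with E2F2 siRNA), as did KIF1B (-0.19 ± 0.06 and -0.33 ± 0.06). The KIF1B call with E2F1 siRNA was lost without any 1 of 6 libraries and in 2 other alternatives. KIF16B fell with E2F2 siRNA (-0.68 ± 0.1) and not by the test with E2F1 siRNA (-0.22 ± 0.1, adjusted p = 0.159). KIF13B rose with E2F1 siRNA (0.5 ± 0.1, adjusted p = 0.00151) and KIF24 with E2F2 siRNA (0.65 ± 0.14, adjusted p = 0.00273).

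The difference in R1881 response between E2F1 and control siRNA was tested as an interaction, which shares the control libraries with the comparisons above. It was negative for all 12 mitotic kinesins (median -0.59), but 0 of 12 passed the adjusted test, as 0.685% of all genes did. At an unadjusted p under 0.05 there were 7 of 12 (10.2% of all genes), and DESeq2 called 4 (2.21%). KIF20A came closest (-0.71 ± 0.17, adjusted p = 0.0763), with KIF15 at -1.04 ± 0.27 (adjusted p = 0.0981) and KIF23 at -0.73 ± 0.2 (adjusted p = 0.106). KIF22 was at -0.07 ± 0.19 (adjusted p = 0.999). Of the other kinesins 0 of 21 passed, 4 at an unadjusted p under 0.05 and 1 with DESeq2. KIF13A was nearest (0.42 ± 0.11, adjusted p = 0.0871).

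**Figure D5:**
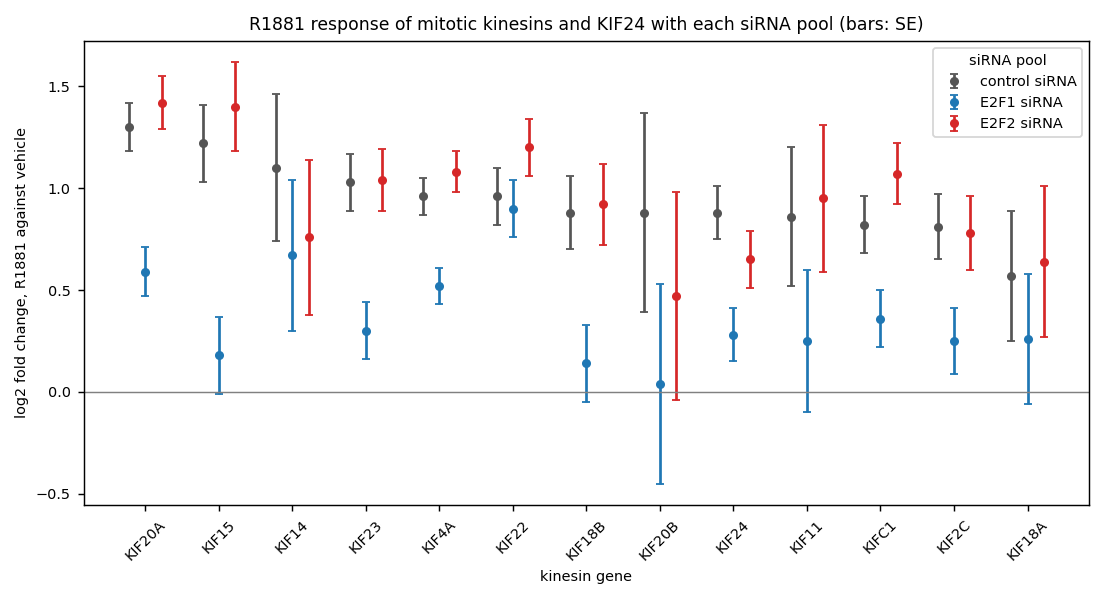
Log2 fold change of R1881 against vehicle (± SE) for the 12 mitotic kinesins and KIF24 with the control, E2F1 and E2F2 siRNA pools, ordered by the response in control cells. With E2F1 siRNA the estimates lie between 0.04 for KIF20B and 0.9 for KIF22. The 3 estimates of a gene contrast separate libraries, but their SEs rest on a common estimate of the spread.

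For the difference between E2F2 and control siRNA, 0 of 12 mitotic kinesins (median 0.08) and 0 of 21 other kinesins passed, as 0.889% of all genes did. Unadjusted p-values under 0.05 numbered 0 and 2 (10.4% of all genes), and DESeq2 called 0 in both (2.07%). The interval around these values remains wide for low-GC members, with KIF20B at -0.41 ± 0.71. KIF26A (-1.06 ± 0.46, adjusted p = 0.419) and KIF3B (0.19 ± 0.08, adjusted p = 0.443) had the smallest p-values. KIF26A had 0.925, 0.944 and 1.46 CPM with E2F2 siRNA and vehicle and 1.18, 0.753 and 1.08 CPM with R1881, which overlapped. KIF3B (ENSG00000101350.7, chr20:32277664-32335011) had 183, 184 and 180 CPM with vehicle and 167, 172 and 177 CPM with R1881 in control cells, and 184, 191 and 176 CPM and 205, 201 and 188 CPM with E2F2 siRNA.

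Replicate numbers went with shared deviations between groups, so a second model held the replicate number as a block. It called more genes throughout, and the members are read against its own background. R1881 with the control pool then called 12 of 12 mitotic and 11 of 21 other kinesins (42.1% of all genes), with E2F1 siRNA 5 and 8 (30.7%), and with E2F2 siRNA 10 and 7 (36.2%). E2F1 siRNA against control called 9 and 5 with R1881 (19.9%) and 2 and 4 with vehicle (12.7%). E2F2 siRNA against control called 12 and 10 in both treatments (45.6% with R1881, 45.3% with vehicle). The 2 E2F pools differed for 8 and 10 with R1881 (38.5%) and 11 and 13 with vehicle (45.5%).

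Under the block the E2F1 difference in response was called for 5 mitotic kinesins, all lower: KIF20A (adjusted p = 0.00323), KIF18B (0.0132), KIF15 (0.0206), KIF23 (0.0248) and KIF4A (0.0433). It was also called for KIF13A (adjusted p = 0.0181) and KIF24 (0.0328), where 4.58% of all genes were called. The E2F2 difference was called for 0 kinesins under the block, where 4.33% of all genes were. With replicates 1 and 2 alone, the E2F1 difference was called for 7 of 12 mitotic kinesins (12.1% of all genes) and E2F1 siRNA with vehicle for 7 of 12 (18.8%). With the GC offset these numbers were 7 of 12 (7.62%) and 5 of 12 (15.4%).

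Partner genes of mitotic kinesins, a list of 26 that includes the passenger complex, centralspindlin and spindle assembly factors, gave counts of the same kind. The list was chosen with earlier results of these data known, so its counts are no independent support. With R1881 and the control pool 22 of 26 rose and 0 fell (median 0.97), beside 13.8% of all genes rising. They included AURKA (1.11 ± 0.11), the spindle kinase, RACGAP1 (1.03 ± 0.09), which forms centralspindlin with KIF23, KNSTRN (1.16 ± 0.09) and BIRC5 (0.98 ± 0.09), a subunit of the passenger complex that KIF20A carries. With R1881 present, 18 of 26 fell with E2F1 siRNA (median -0.84, with 4.92% of all genes lower) and 22 of 26 with E2F2 siRNA (median -1.62, with 14.4% lower). TPX2, which activates AURKA on the spindle, was at -0.88 ± 0.09 and -1.76 ± 0.09. With vehicle 5 of 26 fell with E2F1 siRNA (2.92% of all genes) and 21 of 26 with E2F2 siRNA (13.1%). The E2F1 difference in response, called for 0.685% of all genes, was called for 2 of 26, TPX2 (-0.58 ± 0.12, adjusted p = 0.0484) and BIRC5 (-0.6 ± 0.13, adjusted p = 0.0484). CENPE, the kinetochore kinesin, named after its values were seen, was at 0.97 ± 0.51 with R1881 and -1.25 ± 0.51 with E2F2 siRNA and R1881 and did not pass (adjusted p = 0.181 and 0.0781).

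The genes that serve transport kinesins, the dynein motor and the microtubule itself are read against the same shares of all genes, 13.8% higher and 13.2% lower with R1881 in control cells. Of 26 light chains, cargo adaptors and regulators, 0 rose and 4 fell with R1881 in control cells, led by the light chain KLC4 (-0.97 ± 0.19), and the list median was -0.06. With R1881 present 1 of 26 rose and 0 fell with E2F1 siRNA (the kinesin-1 activator MAP7, 0.43 ± 0.09), beside 4.42% higher and 4.92% lower, and 2 of 26 rose and 2 fell with E2F2 siRNA, beside 15.9% and 14.4%. Of 28 genes of cytoplasmic dynein and dynactin, the opposing motor, 3 rose and 5 fell with R1881 in control cells (median -0.02). BICD2, a dynein adaptor, rose (1.27 ± 0.11), and the dynein intermediate chain DYNC1I1 fell (-1.56 ± 0.32). Of 21 tested tubulins and microtubule regulators, 6 rose and 5 fell with R1881 (median -0.06), among them the end-binding protein MAPRE2 (-2.09 ± 0.09) and TUBA1B (0.65 ± 0.08). With E2F2 siRNA and R1881, 5 of 21 rose and 7 fell, beside the same 15.9% and 14.4%, including STMN1 (-1.57 ± 0.1), which destabilises microtubules.

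Overlapping genes limit some of these values, since the strand setting of the counting was not given in the sources used here. Exons of KIF22 overlap AC009133.4 over 13% of their length, those of KIFC1 overlap RPL12P1 over 12.7%, and those of KIF9 overlap KIF9-AS1 over 14.9%, all on the opposite strand. KIF4A has a retrocopy, KIF4B, which held 20 counts over all libraries against 9811 for KIF4A. Of the tested kinesins, KIF1A, KIF3A, KIF5B, KIF6, KIF7, KIF21B, KIF27 and KIFC2 passed in none of the 11 comparisons. With the replicate block, KIF1A, KIF3A, KIF5B, KIF7 and KIFC2 were called in at least 1 of them. The block called 45.6% of all genes for E2F2 siRNA against control with R1881 alone. The share of all genes called in at least 1 comparison is not given here, so this is not read as a result about these members.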

How the data were processed

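RNA from 18 libraries of LNCaP cells was measured after exon capture (TruSeq RNA Exome), per the labels' protocols. The deposited values are raw counts that the authors obtained with featureCounts. Per the submitters' processing notes, the tools were CASAVA 1.8.2, TopHat2 2.0.13, Picard 1.97 and Subread 1.6.4. Settings, strand handling and the annotation used are not given in the sources used here. Columns were mapped to samples by their titles.

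Genes were filtered with edgeR (minimum count 10, minimum total 15), which left 15185 of 58037. Libraries were scaled by TMM. In edgeR 4.0.16 (limma 3.58.1, R 4.3.3), a single model with 6 group means covered the 18 libraries, with the quasi-likelihood test and Benjamini-Hochberg adjustment over all tested genes. A gene was called at an adjusted p under 0.05. Each SE was taken as the log2 fold change over the root of its F statistic. The procedure was run on simulated data, but the outcome is not given here and no result above rests on it. Nothing is concluded from that run for libraries that deviate along GC content, as some did here. Gene positions, exon length and GC content came from GENCODE 29, which matched 57433 of 58037 identifiers. Total counts of 10930204 to 14819879 per library set the precision.

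Kinesins, gene lists and comparisons were chosen with earlier results of these data known. Per-library values are given for the 2 mitotic and 2 other kinesins with the smallest p in each of 3 main comparisons and the 2 with the smallest p in each response difference. Other kinesins are described where called, and at most 4 called members of each gene list are named. KIF14, KIF15, KIF20B and KIF22 have added values for the groups where they bear on a result.

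Replicate numbers: in 8 of 11 comparisons every pair of same-numbered libraries had deviations correlated above 0.1, and 11 of 18 libraries correlated best with their own number. The labels do not say what the numbers share. Alternatives were DESeq2 1.42.0, RLE size factors, no low-count filter, a CPM filter, fits of only the groups compared, a replicate block, replicates 1 and 2 alone, each library left out, and, added after the data were seen, a GC offset with and without the block.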

Additional observations from a re-analysis of the deposited data

How the results depend on the processing

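Of 116 calls of a kinesin in a comparison, 0 changed direction under any alternative. The calls lost were 17 when only the groups compared were fitted, 15 without a filter on low counts, 1 each with DESeq2, RLE size factors and replicates 1 and 2 alone, 0 with the block, the GC offset or the CPM filter, and 3 to 12 when 1 library was left out. Numbers of called kinesins that moved by over 1.5 times are given here, and the cause was not tested. The share of all genes called moved with the setting too. Counts in this section with no such share here or above are not read as results about kinesins. With the replicate block, mitotic calls went from 3 to 5 for R1881 with E2F1 siRNA, from 1 to 2 for E2F1 siRNA with vehicle and from 0 to 5 for the E2F1 difference in response. Other kinesins called with the block numbered 11, 8 and 7 for R1881 with the control, E2F1 and E2F2 pools, 5 and 4 for E2F1 siRNA with R1881 and vehicle, 10 for E2F2 siRNA with either treatment and 2 for the E2F1 difference. With replicates 1 and 2 alone, mitotic calls were 6, 12, 7 and 7 for R1881 with E2F1 siRNA, E2F1 siRNA with R1881, E2F1 siRNA with vehicle and the E2F1 difference. With the GC offset they were 6, 11, 5 and 7, and with the GC offset and replicate block together 6, 11, 5 and 9. In the same order, the shares of all genes called were 38.3%, 29.5%, 18.8% and 12.1% with replicates 1 and 2 alone. With the GC offset alone the shares were 33.9%, 23.9%, 15.4% and 7.62%. DESeq2 gave 4 mitotic and 1 other kinesin for the E2F1 difference and 5 other kinesins for R1881 with E2F1 siRNA. Other kinesins with replicates 1 and 2 alone numbered 11, 11 and 8 for R1881 with the 3 pools, 8 and 6 for E2F1 siRNA with R1881 and vehicle, 10 for E2F2 siRNA with R1881, 16 between the E2F pools with vehicle, and 6 and 2 for the differences. With the GC offset these were 11, 8, 8, 6, 5, 9, 16, 2 and 1, and with the GC offset and replicate block 13, 12, 9, 6, 7, 11, 16, 3 and 3. Without a filter, and with only the groups compared, R1881 with the control pool gave 3 other kinesins and E2F1 siRNA with vehicle gave 0 mitotic and 0 other. Fitting only the groups compared gave 8 other kinesins for E2F2 siRNA with R1881.

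Leaving out 1 library at a time, mitotic calls ranged from 8 to 10 for R1881 with the control pool, 3 to 5 with E2F1 siRNA and 8 to 10 with E2F2 siRNA. They ranged from 7 to 9 and 0 to 3 for E2F1 siRNA with R1881 and vehicle, 11 to 12 and 10 to 12 for E2F2 siRNA, and 0 to 1 for the E2F1 difference. Without replicate 3 of control vehicle there were 5 for R1881 with E2F1 siRNA, 3 for E2F1 siRNA with vehicle and 1 for the E2F1 difference, and without replicate 2 of E2F1 siRNA with vehicle also 1 for the difference. For E2F1 siRNA with vehicle, 12 of the 18 omissions left 0. Other kinesins ranged from 4 to 9 for R1881 with the control pool, 2 to 6 with E2F1 siRNA, 0 to 3 for E2F1 siRNA with vehicle and 4 to 9 for E2F2 siRNA with R1881, with the highest of these 4 each time without replicate 3 of control vehicle. The lowest value, 0 for E2F1 siRNA with vehicle, came without replicate 2 of control vehicle or replicate 1 of E2F1 siRNA with vehicle. Standard errors of 0.32 to 0.51 for KIF11, KIF14, KIF18A and KIF20B limit what could be called for them.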
